A study of Caenorhabditis elegans with 45 samples.

Results

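Gene expression was compared between 2 wild strains of *Caenorhabditis elegans*, EG4348 and QX1211, on the empty vector control. The 6 libraries were those whose labels gave the control treatment for either strain, 3 biological replicates each, out of 45 libraries in the series. The series held 5 strains (N2, JU1088, EG4348, CB4856 and QX1211), each on the empty vector, on *par-1* RNAi food and on *pos-1* RNAi food. RNA came from whole hermaphrodites on day 1 of adulthood, collected when egg laying was first seen. All the worms compared, EG4348 and QX1211 alike, ate *E. coli* HT115 with the empty plasmid pL4440, which carries no *par-1* or *pos-1* insert. All experiments ran at 20 °C, but QX1211 had been kept at 18 °C before them and EG4348 at 20 °C, so the strain and its maintenance temperature cannot be told apart.

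RNAi in *C. elegans* starts when double-stranded RNA enters cells, is cut by Dicer with its cofactors and is amplified by RNA-dependent RNA polymerases into secondary small RNAs that Argonaute proteins carry to their targets. Wild strains differ in how well germline genes are silenced by eaten RNA, and EG4348 and QX1211 were chosen by the study as a moderately competent and a largely incompetent strain. Each strain is a single isogenic line, so a difference between them is a difference between lines. The replicates were sets of plates of one experiment, and the p-values measure the spread between those sets. In whole worms, fewer cells of a type and less RNA per cell cannot be told apart.

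Depth was 5316840 to 10194296 reads in EG4348 and 4269033 to 9758712 in QX1211. Across 11062 genes, library pairs within EG4348 had a Spearman rho of 0.991 to 0.994, pairs within QX1211 of 0.981 to 0.986, and pairs of the 2 strains of 0.948 to 0.955. Replicate 1 of QX1211 lay farther from its 2 sister libraries (chi-square of 14.1 and 14.9 per degree of freedom) than these lay from each other (2.95). Without it 3882 genes were called in the comparison below where all libraries gave 4868. Leaving out replicate 1 or replicate 2 of EG4348 gave fewer still, 3630 and 3861. The markers of adult hermaphrodites were present in all 6 libraries. The yolk gene *vit-2* lay between 132821 and 220459 normalized counts, the germline gene *glh-1* between 3490 and 4773, the muscle myosin *unc-54* between 10615 and 18463 and the adult cuticle collagen *col-19* between 5649 and 8765. The male neuron genes *pkd-2* and *lov-1* had at most 1.79, and the neuronal gene *rgef-1* 4.80 to 23.3.

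Of 16490 genes tested, 4868 were differentially expressed between EG4348 and QX1211 (edgeR quasi-likelihood test, genome-wide adjusted p under 0.1), which is 29.5%. In EG4348, 2224 genes (13.5%) were higher, and in QX1211, 2644 (16.0%). The 2 directions differed in size. The median absolute log2 fold change was 0.47 among the genes higher in EG4348 and 1.69 among those higher in QX1211, and it was 0.47 and 1.55 with genes silent in one strain set at the bound that 3 reads allow. More than 2-fold differences were found for 643 genes higher in EG4348 and for 1761 higher in QX1211. The directions differed in expression level too. Among autosomal genes with at least 50 normalized counts in the higher strain, 1662 calls were higher in EG4348 and 933 in QX1211. On chromosome X, 97 and 261 such calls were found. With a fold change above 1.5 required as well, 3115 genes were called, 918 of them higher in EG4348. The libraries of the strains did not overlap at 4454 of the called genes, while 37.4% of all tested genes had groups that did not overlap.

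**Figure D1:**
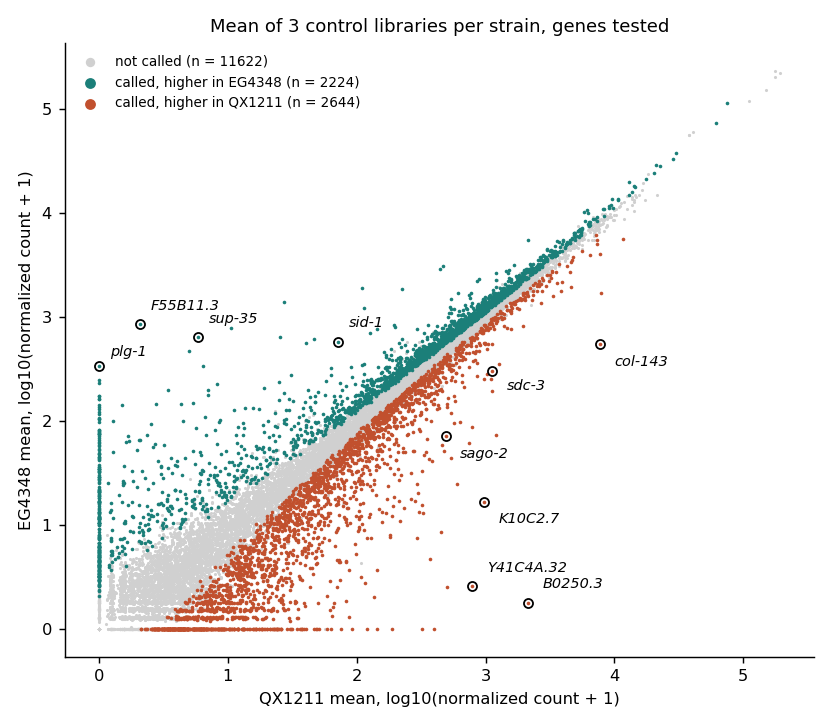
Mean level in the 3 control libraries of QX1211 (x axis) and of EG4348 (y axis), both as log10 of normalized count + 1, for each gene tested. The 2224 genes called higher in EG4348 lie mostly close to the diagonal, whereas many of the 2644 called higher in QX1211 spread far below it, and circles mark genes described in the text.

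The gene that separated the strains with the smallest p was F55B11.3 (chromosome IV, 14424696 to 14425569, WBcel235). It had 846, 843 and 854 normalized counts in EG4348 and 1.37, 1.88 and 0 in QX1211 (log2 fold change of EG4348 over QX1211 9.32, SE 0.19, adjusted p 2.6e-14). N2, JU1088 and CB4856 lay between 574 and 899, so QX1211 was the strain apart. *sup-35* (chromosome III, 11115754 to 11119226), the toxin of a maternal-effect toxin-antidote element, had 585, 628 and 682 normalized counts in EG4348 and 1.44, 6.72 and 6.56 in QX1211 (log2 fold change 7.30, SE 0.22, adjusted p 4.1e-12). It overlaps Y48A6C.2 on the same strand, and reads of the shared part could be assigned to either. Its antidote *pha-1* went the other way, from 86.6 to 100 in EG4348 and from 117 to 152 in QX1211 (log2 fold change -0.53, SE 0.15, adjusted p 0.017).

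*sid-1* (chromosome V, 5119970 to 5126916), which encodes the channel that imports double-stranded RNA into cells, had 532, 580 and 617 normalized counts in EG4348. In QX1211 it had 72.3, 71.3 and 68.5. The log2 fold change was 3.04 (SE 0.09, adjusted p 4.4e-12), an 8.21-fold difference with no overlap. The other strains lay at 543 to 575 in N2, 516 to 551 in JU1088 and 314 to 356 in CB4856, all above every QX1211 library. The annotated pseudogene C01G5.2 had 1886, 1869 and 1941 normalized counts in EG4348 and 122, 117 and 90.7 in QX1211 (log2 fold change 4.11, SE 0.13). R03G8.6 followed with 294 to 357 in EG4348 and 3.34 to 8.42 in QX1211 (log2 fold change 6.00, SE 0.20).

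Among genes with no read at all in QX1211, *plg-1* (chromosome III, 8852261 to 8853006), which acts in the copulatory plug, was the most abundant in EG4348. It had 330, 334 and 332 normalized counts there and 0 in each QX1211 library, at least 258-fold higher in CPM (reads scaled to library size) against 3 counts over the 3 libraries. It was at 330 to 551 in N2 and at no more than 1.05 in JU1088 and CB4856. F19B2.5 (215 to 293), C08F11.12 (225 to 241), *bath-5* (166 to 179) and *bath-2* (165 to 178) were also without a read in QX1211, with bounds of at least 189-fold, 180-fold, 133-fold and 127-fold. Y57G11C.51, F52C6.2, the telomere-binding protein homologue *pot-3*, *pals-24* and the nematode-specific peptide gene *nspc-12* completed the 10 largest differences, each at 0 in QX1211 and between 120 and 175 in EG4348.

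In the other direction, K10C2.7 (chromosome X, 6442655 to 6443473) had the smallest p. It had 13.4, 15.7 and 17.9 normalized counts in EG4348 and 886, 1034 and 1005 in QX1211 (log2 fold change -5.95, SE 0.17, adjusted p 3.1e-12). Y41C4A.32 had 1.53, 1.77 and 1.44 in EG4348 against 694, 1019 and 649 in QX1211 (log2 fold change -8.81, SE 0.31, adjusted p 1.8e-11). The other strains had low levels of both genes, at most 19.5 for K10C2.7 and at most 29.2 for Y41C4A.32.

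*tbb-6*, a beta tubulin, had 23.1, 21.0 and 27.3 normalized counts in EG4348 and 649, 585 and 579 in QX1211 (log2 fold change -4.66, SE 0.20, adjusted p 2.9e-10). *sdc-3*, which acts in sex determination and X chromosome dosage compensation, had 275, 299 and 316 in EG4348 and 1118, 1121 and 1131 in QX1211 (log2 fold change -1.90, SE 0.09, adjusted p 5.0e-10). The 9 libraries of N2, JU1088 and CB4856 lay between 282 and 398, so the QX1211 level was again the one apart. *xol-1*, the switch gene that sets male fate upstream of *sdc-3*, was also higher in QX1211, at 14.6 to 20.9 against 2.08 to 3.98 (log2 fold change -2.66, SE 0.37, adjusted p 7.5e-05).

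The pseudogene B0250.3 (chromosome V, 20468349 to 20469413) had 2115, 2069 and 2184 normalized counts in QX1211 and 2.37, 0 and 0 in EG4348. The ratio in CPM was 2069, with a 95% counting interval of 778 to 11041. CB4856 had 2476 to 3378, and N2 and JU1088 at most 8.20. Genes without a read in EG4348 included *bath-28* (172 to 211 in QX1211, at least 139-fold higher), the short-chain dehydrogenase *dhs-26* (110 to 206, at least 135-fold) and the pseudogene F59A7.8 (113 to 124, at least 127-fold). Y51H4A.24, *fbxa-64*, R01B10.2 and M04C3.1 were likewise at 0 in EG4348, with 48.7 to 108 in QX1211.

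Several of the largest values belonged to loci with close copies. *rpl-37*, a ribosomal protein gene, had 524, 210 and 454 normalized counts in QX1211 and 0 in EG4348, whereas W01D2.1, its paralogue, had 3627 to 4913 in QX1211 and 3791 to 3871 in EG4348 (adjusted p 0.54). *nspc-15* had 363, 249 and 353 against 0, but DESeq2 did not call it. The 2 loci named *pes-2.1* had no stable split of reads in QX1211, since one held all of them in the control and the other held all in 1 *par-1* RNAi and 2 *pos-1* RNAi libraries. Their sum was 440 to 662 in QX1211 and 66.5 to 110 in EG4348. *nspc-15*, *bath-28* and Y57G11C.51 overlap another gene on the same strand. Such loci are uncertain one by one, and 27 called genes shared their symbol with another called gene.

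**Figure D2:**
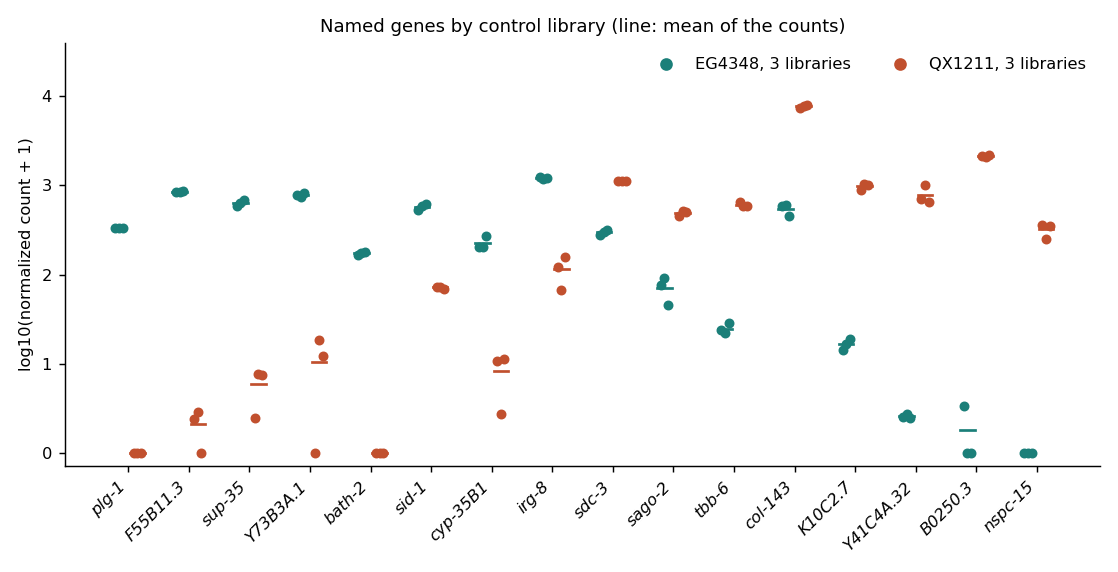
Normalized counts of 16 genes in each of the 6 control libraries, as log10 of count + 1, with a line at the mean of each strain. The genes were picked from those named in the text, some by rules that required no overlap or no read in the other strain. None of those shown overlaps between the strains, a trait of 37.4% of all tested genes. *plg-1* and *bath-2* are at 0 in all 3 QX1211 libraries while *nspc-15* is at 0 in all 3 EG4348 libraries.

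Among the 16490 genes tested, 594 had no read in any QX1211 control library and 872 had none in any EG4348 control library. Of these, 142 had none in either strain. Of the 4868 genes called, 225 had no read in any QX1211 control library and 376 had none in any EG4348 control library. A count of 0 allowed up to 0.161 CPM in QX1211 and 0.124 CPM in EG4348, which covers counting error only. Most of these genes were weakly expressed in the other strain, with a median of 8.97 normalized counts for those silent in QX1211 and 4.39 for those silent in EG4348, and only 33 and 10 reached 50. Of the 225, 152 were also without a read in all 6 RNAi libraries of QX1211. Of the 376, 119 were also without a read in the 6 RNAi libraries of EG4348. Whether a gene at 0 was missing from the genome, too diverged for its reads to be assigned or not transcribed was not tested. The part of read assignment at genes with few reads in a strain, such as F55B11.3, was not tested either, and DNA coverage was not analysed here.

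Genes of the RNAi pathway were called at each step listed, at shares that differed between steps. Of 6 genes listed for uptake and transport, 2 were called (33.3%, beside 29.5% of all genes). These were *sid-1*, higher in EG4348, and *eri-6*, higher in QX1211. *eri-6*, which encodes part of a helicase of the endogenous small RNA pathway rather than a transporter, had 96.0 to 108 normalized counts in EG4348 and 238 to 336 in QX1211 (log2 fold change -1.40, SE 0.14, adjusted p 2.5e-06). It overlaps T01A4.9 on the same strand. *sid-2*, the gut lumen receptor for eaten RNA, had 45.1 to 50.5 in EG4348 and 53.0 to 67.4 in QX1211 and was not called (adjusted p 0.36).

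Dicer and its closest partners did not pass the test. *dcr-1* had 1651 to 1823 normalized counts in EG4348 and 1664 to 1812 in QX1211 (log2 fold change 0.03, SE 0.07). *rde-4*, which binds double-stranded RNA, had a log2 fold change of 0.15 (SE 0.10) and *rde-1*, the primary Argonaute of exogenous RNAi, one of 0.16 (SE 0.09, adjusted p 0.19). Of 17 genes of this step, 4 were called (23.5%, beside 29.5% of all genes). *alg-5*, a germline Argonaute of the microRNA class, had 1180, 1246 and 1331 in EG4348 and 503, 528 and 567 in QX1211 (log2 fold change 1.26, SE 0.07, adjusted p 5.5e-09), and it overlaps T23D8.11 and T23D8.12 on the same strand. *drh-1*, a Dicer-related helicase that acts against viruses, was slightly higher in EG4348 (log2 fold change 0.26, SE 0.08). *alg-3* and *alg-4*, Argonautes of sperm development, were higher in QX1211, at 11.45 to 12.88 against 0 to 0.89 and at 5.56 to 12.18 against 0 to 0.90.

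In the amplification step, 13 of 19 genes were called, 11 higher in EG4348 and 2 higher in QX1211, beside 29.5% of all genes. Calls of autosomal genes with at least 50 normalized counts in the higher strain also leaned to EG4348 (1662 of 2595). The differences in this step were small. The endonuclease *nyn-1* had 240 to 249 normalized counts in EG4348 and 129 to 156 in QX1211 (log2 fold change 0.81, SE 0.12), and *rde-11* had 282 to 294 against 189 to 208 (log2 fold change 0.57, SE 0.09). The polymerase genes *rrf-3* and *ego-1* and the mutator genes *mut-2*, *mut-7*, *mut-15* and *mut-16*, with *rde-2*, *rde-12* and *nyn-2*, had log2 fold changes of 0.24 to 0.53. The 2 genes higher in QX1211 were *rrf-2*, a polymerase paralogue, at 191.4 to 218.6 against 87.1 to 91.4 (log2 fold change -1.19, SE 0.14), and the helicase *mut-14*, at 680 to 799 against 411 to 477 (log2 fold change -0.72, SE 0.11).

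Of 19 secondary Argonautes and nuclear RNAi genes, 11 were called (57.9%, beside 29.5% of all genes), 9 of them higher in EG4348. *sago-2*, a secondary Argonaute, was the clearest exception, with 75.3, 91.5 and 44.0 normalized counts in EG4348 and 448, 518 and 501 in QX1211 (log2 fold change -2.73, SE 0.27, adjusted p 2.2e-06). The pseudogene ZK218.8 had 8.6 to 24.0 in QX1211 and no read in EG4348. *ppw-1*, an Argonaute needed for germline RNAi, had 2116 to 2345 in EG4348 and 1259 to 1699 in QX1211 (log2 fold change 0.60, SE 0.10, adjusted p 6.2e-04). *ppw-2* (0.78), *nrde-4* (0.73), *wago-4* (0.54), *hrde-1* (0.37), *nrde-1* (0.33) and *csr-1* (0.28) had log2 fold changes in the same direction. The 2 annotated pseudogenes F55A12.1 (779 to 836 against 187.2 to 218.5) and C14B1.7 (891 to 953 against 498 to 686) did too. Without replicate 1 of QX1211, *csr-1*, *ego-1* and *nyn-2* were no longer called, and without its replicate 2 *mut-2* and *nyn-2* were not. The oocyte genes described next were also mostly higher in EG4348, and the part of germline RNA content in the values of these RNAi genes was not tested.

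**Figure D3:**
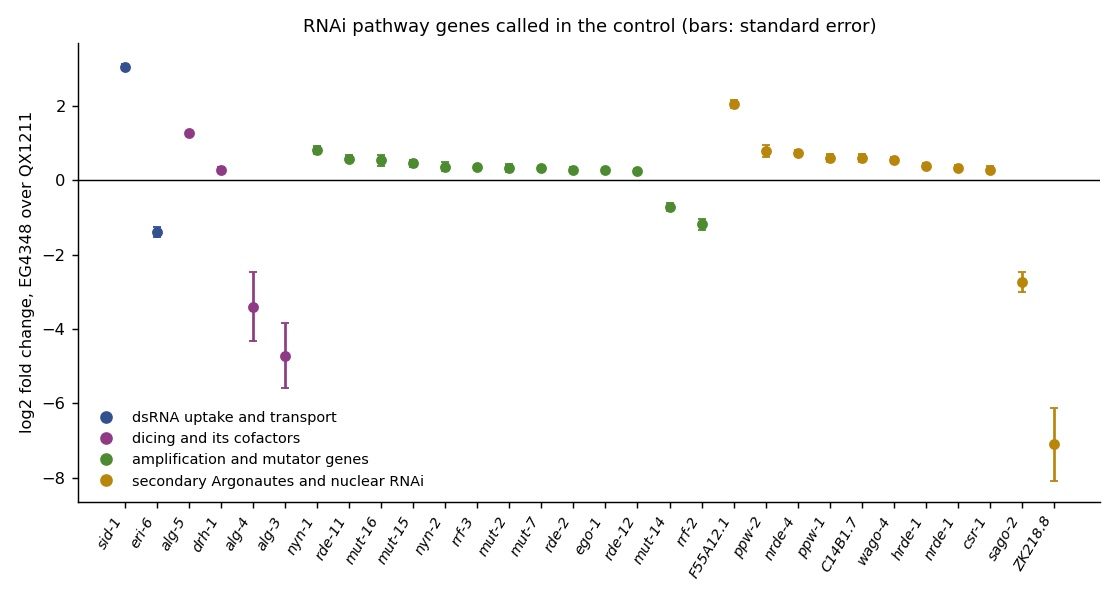
Log2 fold change of EG4348 over QX1211 with its standard error for each RNAi pathway gene called in the control, grouped by step. *sid-1* (3.04) lies highest, the amplification and Argonaute genes higher in EG4348 lie at or below 2.04, and *sago-2*, *alg-3*, *alg-4* and ZK218.8 lie lowest, with ZK218.8 fitted from no read in EG4348.

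Oocyte and eggshell genes were higher in EG4348 nearly throughout. Their list, like the others, was chosen with earlier results of these data known, so its share called is not independent of them. Of 42 listed (90.5% called, beside 29.5% of all genes), 37 were called higher in EG4348 and 1 higher in QX1211. The groups did not overlap at 35, beside 37.4% of all genes tested. Leaving out 1 library left 29 to 36 called higher in EG4348. The log2 fold changes were small, 0.17 to 0.94 among the 37, with a median of 0.36 over the list and of -0.04 over all genes tested. Over 7308 autosomal genes with at least 50 normalized counts in the higher strain, the median was 0.07. *egg-5*, a pseudophosphatase of the egg-to-embryo transition, had 2300, 2212 and 2303 normalized counts in EG4348 and 1078, 1258 and 1288 in QX1211 (log2 fold change 0.94, SE 0.09, adjusted p 1.1e-06). *nos-2*, a nanos homologue of the germline, had 1191 to 1240 against 641 to 777 (log2 fold change 0.82, SE 0.09), and the eggshell proteoglycan *cpg-1* 18731 to 20464 against 12589 to 13255 (log2 fold change 0.63, SE 0.07). The polarity gene *par-2* was called higher in QX1211 (log2 fold change -1.05, SE 0.30), but without the transcript length offset it was higher in EG4348. Summed over the list, EG4348 had 224545 to 233469 and QX1211 170101 to 189351 normalized counts (exact permutation test over the 6 libraries, two-sided p = 0.1, the smallest that 3 against 3 allow).

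The targets of the RNAi treatments, both maternal germline genes, were compared in the control as well. *pos-1* had 6335 to 6621 normalized counts in EG4348 and 5308 to 5567 in QX1211 (log2 fold change 0.27, SE 0.06, adjusted p 0.0042). *par-1* had 1170 to 1213 in EG4348 and 844 to 1297 in QX1211 and was not called (log2 fold change 0.20, SE 0.11, adjusted p 0.23). Of the 6 yolk protein genes, *vit-4* was called, at 111510 to 115900 in EG4348 and 57872 to 91814 in QX1211 (log2 fold change 0.62, SE 0.14), and 5 were called without replicate 3 of QX1211.

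Genes of the *msp* and *ssp* sperm families went the other way, while the sum of the *spe* genes overlapped between the strains. Of 62 sperm genes tested (53.2% called, beside 29.5% of all genes), 32 were higher in QX1211 and 1 in EG4348. That gene, *spe-41*, had 31.1 to 36.7 in EG4348 against 14.0 to 18.9. Leaving out 1 library gave 25 to 29 higher in QX1211, the fewest without replicate 1 of EG4348. All 22 called genes of the major sperm protein family and all 5 called *ssp* genes were higher in QX1211. The sum of 30 *msp* genes was 23.7 to 53.6 normalized counts in EG4348 and 338 to 516 in QX1211, 10.9-fold higher, and the sum of 11 *ssp* genes was 7.51 to 20.3 against 308 to 448, 23.6-fold higher (exact permutation p = 0.1 for each, the smallest possible). *ssp-37* accounted for most of the latter, with 1.7, 9.1 and 8.7 in EG4348 and 229, 262 and 383 in QX1211 (log2 fold change -5.53, SE 0.36, adjusted p 2.4e-08). Of 22 *spe* genes tested, 5 were higher in QX1211, and the sum of 28 was 1236 to 1497 in EG4348 and 1281 to 1529 in QX1211 (exact permutation p = 0.7). Members of the *msp* family are near-identical, so the sums are firmer than the single genes. The *msp* sum of QX1211 lay within the range of the other strains (41.4 to 871), while EG4348 overlapped only the lowest JU1088 library. The *ssp* sum of QX1211 lay above all other control libraries, whose highest was 216.

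Genes first transcribed in the early embryo were also more often higher in QX1211, 18 of 47 tested, with 5 higher in EG4348. The called share was 48.9%, beside 29.5% of all genes. *vet-6* had 28.1, 57.3 and 52.6 normalized counts in EG4348 and 312, 339 and 354 in QX1211 (log2 fold change -2.87, SE 0.27, adjusted p 1.5e-06), and *sdz-30* had 8.2 to 26.1 against 125 to 155 (log2 fold change -2.95, SE 0.31). The endoderm gene *end-3* had 3.02 to 6.18 against 16.43 to 18.30. The 5 higher in EG4348 were *sdz-18*, *sdz-24*, *sdz-35* and the 2 loci named *sdz-25*. Summed over 48 genes, EG4348 had 799 to 1027 and QX1211 1693 to 1737, and the lowest of the other control libraries had 1100. The number of embryos held in the worms was not measured.

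**Figure D4:**
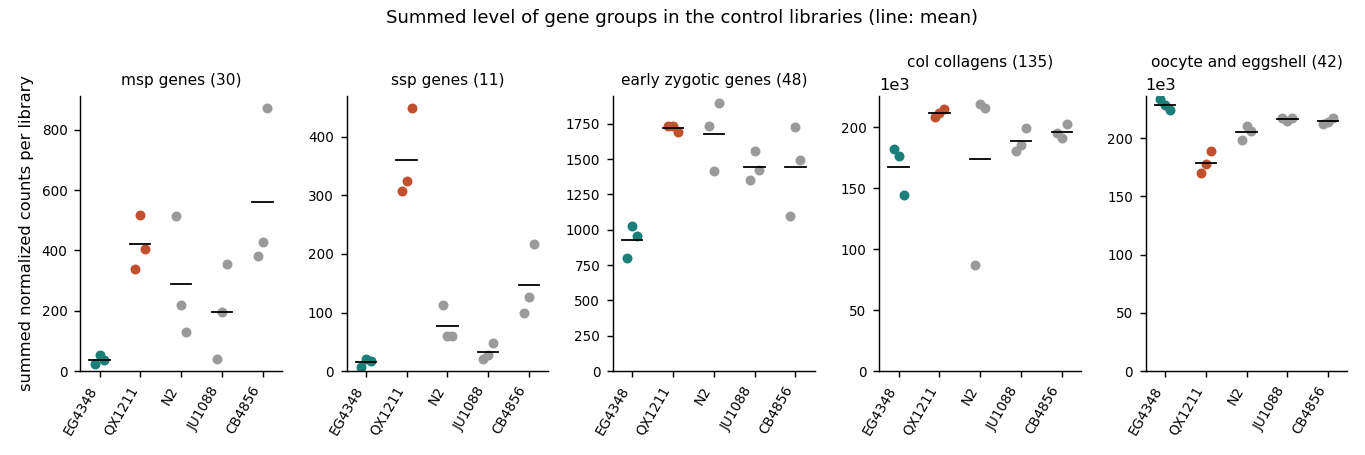
Summed normalized counts of 5 gene groups in each of the 15 control libraries, with a line at the mean of each strain and EG4348 and QX1211 in colour. EG4348 is lowest in the *msp*, *ssp* and early zygotic sums, on average, and highest in the oocyte sum, where QX1211 is lowest.

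Most genes with collagen or cuticle phenotype names did not pass the test, and those that did were mainly higher in QX1211. Of 155 tested, 112 were not called, 37 were higher in QX1211 and 6 in EG4348, a called share of 27.7% beside 29.5% of all genes. The names also took in 6 called genes that are not collagens, among them the dosage compensation genes *dpy-21* and *dpy-27* and the oxidase *bli-3*. Of 119 *col* genes alone, 26 were higher in QX1211 and 5 in EG4348. *col-143*, picked out after its values were seen for its abundance, had 585, 598 and 449 normalized counts in EG4348 and 7317, 7808 and 8057 in QX1211 (log2 fold change -3.80, SE 0.38, adjusted p 2.7e-06). JU1088 and CB4856 had 6915 to 8333 and N2 1881 to 8349, so EG4348 was the strain apart there. *dpy-14* had 10.0 to 31.6 in EG4348 and 258 to 361 in QX1211 (log2 fold change -3.92, SE 0.67), and of 5 furrow collagens tested, made around moults, the 3 called, *dpy-2*, *dpy-3* and *dpy-7*, had 0.82 to 5.14 against 15.4 to 47.7. Of 61 hedgehog-related genes, 11 were higher in QX1211 and 3 in EG4348, and the called share of 23.0% was below the 29.5% of all genes. *wrt-10* had 2.3 to 5.1 in EG4348 and 57.8 to 82.0 in QX1211 (log2 fold change -4.37, SE 0.65), while only 8 of these genes were called without replicate 1 or without replicate 2 of EG4348.

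**Figure D5:**
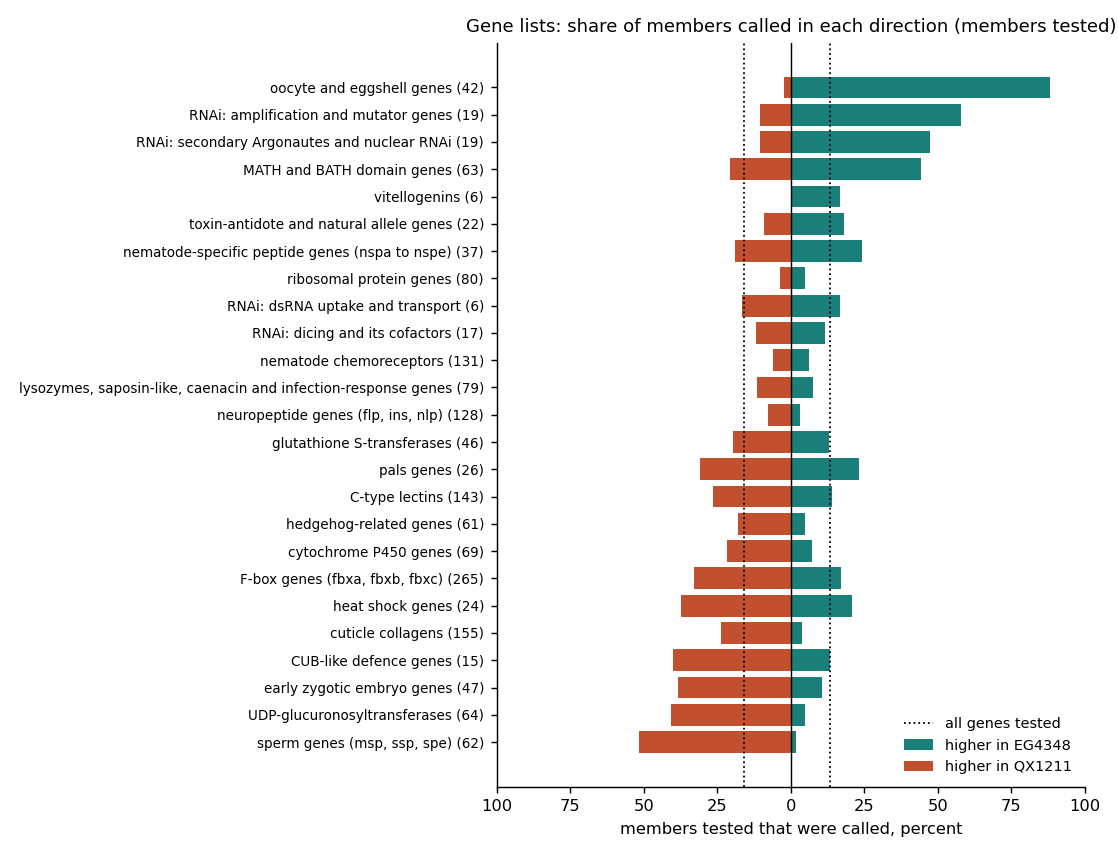
Share of the tested members of each gene list called higher in EG4348 (right) or in QX1211 (left), in percent, with the number tested in parentheses and dotted lines at the shares of all genes tested (13.5% and 16.0%). Oocyte and eggshell genes lie at the EG4348 end and sperm genes at the QX1211 end.

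Families known for rapid gain and loss of genes held many calls, beside 29.5% of all genes called. Of 265 F-box genes tested, whose products are thought to select proteins for degradation, 45 were higher in EG4348 and 87 in QX1211 (49.8% called). Of 63 MATH and BATH domain genes, adaptors of the same kind, 28 were higher in EG4348 and 13 in QX1211 (65.1%). Of the F-box genes tested, 45 had no read in QX1211 and 34 none in EG4348. Of the MATH and BATH genes, 17 had no read in QX1211 and 2 none in EG4348. *fbxc-42* had 92.5 to 98.0 normalized counts in EG4348 and no read in QX1211, *fbxa-197* 69.3 to 98.5 and *fbxa-153* 49.1 to 53.2, likewise with none in QX1211. *math-14* was at 95.4 to 109 against 0, while *bath-28* and *fbxa-64*, given above, had reads only in QX1211. Near-identical copies occur in these families, and single members are uncertain to that extent.

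The *pals* genes, which act in the response to intracellular pathogens, split by position. *pals-22* to *pals-25*, neighbours at the left end of chromosome III (120435 to 137975), were all higher in EG4348. *pals-22*, a repressor of that response, had 31.8 to 45.3 normalized counts against 4.98 to 7.61 (log2 fold change 2.63, SE 0.31), and its antagonist *pals-25* 19.6 to 29.2 against 5.78 to 11.77 (log2 fold change 1.45, SE 0.36). *pals-24* and *pals-23* had no read in QX1211. *pals-16* to *pals-20*, farther in on the same chromosome, were higher in QX1211, with *pals-17* at 13.8 to 20.7 and *pals-19* at 11.42 to 21.81 and both at 0 in EG4348. *pals-21*, beside them, was higher in EG4348, at 1.72 to 4.54 against 0. Over the family, 14 of 26 were called (53.8%, beside 29.5% of all genes), 6 higher in EG4348 and 8 in QX1211.

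Defence and detoxification families differed in how their calls fell. Among C-type lectins, 38 were higher in QX1211 and 20 in EG4348 (40.6% of those tested were called, beside 29.5% of all genes). *clec-166* had 60.2 to 83.7 normalized counts in EG4348 and *clec-47* 28.0 to 33.8, with no read in QX1211, and *clec-141* and *clec-49* had 9.8 to 23.5 in QX1211 and none in EG4348. The pathogen response gene *irg-8* had 1240, 1185 and 1199 in EG4348 and 119, 65.7 and 158 in QX1211 (log2 fold change 3.42, SE 0.24, adjusted p 4.9e-08), and its neighbour *dod-19* 437 to 704 against 35.3 to 59.8 (log2 fold change 3.76, SE 0.51). Of the 15 CUB-like genes, 6 were higher in QX1211 and 2 in EG4348 (53.3% called, beside 29.5% of all genes). Those higher in QX1211 included F55G11.2 (23.3 to 53.9 against 4.5 to 6.2) and C32H11.4 (10.53 to 30.90 against 1.58 to 4.68). The lysozymes *lys-2*, *lys-4* and *lys-7* were higher in EG4348, with *lys-2* at 826 to 917 against 522 to 636. Of the 79 lysozyme, saposin-like and infection-response genes tested, 15 were called, 6 higher in EG4348 and 9 in QX1211, a share of 19.0% beside 29.5% of all genes. Without replicate 1 of EG4348 or of QX1211, 5 of them were higher in QX1211, and without replicate 2 of EG4348, 6 were.

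UDP-glucuronosyltransferases, which conjugate foreign and endogenous small molecules, were higher in QX1211 at 26 of 64 genes and in EG4348 at 3. The called share was 45.3%, beside 29.5% of all genes, and the median log2 fold change was -0.56. When replicate 1 of QX1211 was left out, 16 were higher in QX1211 and 4 in EG4348. *ugt-66* had 6.85 to 10.48 normalized counts in EG4348 and 65.75 to 72.65 in QX1211 (log2 fold change -2.996, SE 0.35, adjusted p 1.3e-05), and *ugt-33* and *ugt-57* were also higher there (log2 fold changes -2.79 and -2.93). *ugt-31* was the reverse, at 135 to 155 in EG4348 and 3.1 to 3.6 in QX1211 (log2 fold change 5.38, SE 0.49). Of 69 cytochrome P450 genes, 15 were higher in QX1211 and 5 in EG4348, a called share of 29.0% beside 29.5% of all genes. Without replicate 1 of QX1211, 8 were higher in either strain, and without replicate 2 of EG4348, 9 were higher in QX1211 and 5 in EG4348. Neighbouring paralogues could differ in direction. *cyp-35B1* had 201, 201 and 270 in EG4348 and 9.6, 1.7 and 10.4 in QX1211 (log2 fold change 4.78, SE 0.41), whereas *cyp-35B3* had 40.2 to 44.2 against 292 to 415 (log2 fold change -3.09, SE 0.23). *cyp-32B1*, *cyp-33C4* and *cyp-33C5* had log2 fold changes of -3.55, -4.22 and -3.59. Of 46 glutathione S-transferases, 6 were higher in EG4348 and 9 in QX1211 (32.6% called, beside 29.5% of all genes). *gst-20* had 33.3 to 45.7 in EG4348 and 175 to 233 in QX1211, and *gst-22* had reads only in QX1211. Without replicate 1 of QX1211, 6 of this family were higher in EG4348 and 3 in QX1211.

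Of 24 heat shock genes, 14 were called (58.3%, beside 29.5% of all genes), 5 higher in EG4348 and 9 in QX1211. A model of all 45 libraries called only 8. Without replicate 2 or without replicate 3 of QX1211, 5 were higher in EG4348 and 4 in QX1211, and without replicate 2 or without replicate 3 of EG4348, 5 in either strain. The inducible *hsp-70* had 12.7 to 18.9 normalized counts in EG4348 and 56.3 to 131 in QX1211 (log2 fold change -2.44, SE 0.58), and its relatives F44E5.4 and F44E5.5, near-identical copies, had opposite directions (-1.44 and 4.38). Of 128 neuropeptide genes, 4 were higher in EG4348 and 10 in QX1211 (6 in QX1211 without its replicate 1). The called share was 10.9%, beside 29.5% of all genes. Among those higher in QX1211 was the insulin-like *ins-19*, at 40.8 to 46.6 in QX1211 against 0.8 to 6.0. Of 131 chemoreceptors with enough reads, 8 were called in each direction, and *sri-40* had 144 to 158 against 26.2 to 49.1 (log2 fold change 1.97, SE 0.19). DESeq2 called 5 chemoreceptors, and 7 were called without replicate 1 of QX1211 and 9 without replicate 1 of EG4348. Of 80 ribosomal protein genes, 7 were called (8.75%, beside 29.5% of all genes), but 17 without replicate 3 of QX1211. Of 22 toxin-antidote and natural allele genes, 6 were called (27.3%, beside 29.5% of all genes). They were those already named and *pot-2* (259 to 282 against 139 to 201) and *set-24* (360 to 365 against 242 to 331), both higher in EG4348. Of the peptide genes *nspa* to *nspe*, 9 of 37 were higher in EG4348 and 7 in QX1211 (43.2% called, beside 29.5% of all genes). One of them, *nspc-16*, was at 158 to 187 against 24.6 to 57.4.

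Calls were spread over the genome but not evenly. In windows of 200 kb with at least 10 genes tested, of which there were 502, the median share called was 27.4% and the highest 66.7%, and none was without a call. The first 200 kb of chromosome X had 16 of 24 genes called, 12 of them higher in EG4348, and 8 of its genes had no read in QX1211. There, Y73B3A.1 had 779, 744 and 830 normalized counts in EG4348 and 0, 17.44 and 11.25 in QX1211 (log2 fold change 6.89, SE 0.38, adjusted p 3.6e-09), and Y73B3A.20 and the pseudogene Y73B3A.21 had 49.8 to 78.2 against 0 to 4.07. The window from 12200001 to 12400000 on chromosome II had 14 of 21 genes called, most with small differences, such as *pqn-87* at 4193 to 4472 against 2686 to 3542 (log2 fold change 0.45, SE 0.09). The thioredoxin-like *txdc-12.1* was its largest, at 61.4 to 124 against 478 to 754 (log2 fold change -2.67, SE 0.24). On chromosome I, 18 of 28 genes from 13800001 to 14000000 were called, 13 higher in QX1211, with Y71A12B.11 at 6.06 to 16.38 against 139 to 194 (log2 fold change -3.93, SE 0.32).

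A stretch of 4 adjoining windows on chromosome II, from 1400001 to 2200000, had 118 of 196 genes called (60.2%), 60 higher in EG4348 and 58 in QX1211. The stretch was picked after the shares of its windows, among the highest, were seen, so its high share followed from that choice. It held 38 of the MATH and BATH genes tested, of which 26 were called and 22 were higher in EG4348. It also held 45 F-box genes, of which 23 were called, and both are part of the family counts above. In this stretch, 50 genes had no read in QX1211 and 27 had none in EG4348. Over all nuclear chromosomes, the outer segments (within 25% of the length from either end) had 33.1% of genes called and the central segments 26.9%, and differences above 4-fold were called for 14.2% and 6.73%. The called share was not higher in the outer segments on chromosome IV (28.9% against 29.4% in the centre) or on chromosome X (23.2% against 24.3%). Pseudogenes were called more often than protein-coding genes, at 46.9% of 701 and 28.9% of 15517. Of 3162 genes with a transcript whose length differed between the strain transcriptomes, through inserted or deleted bases, 36.4% were called, beside 27.9% of 13314 genes with equal lengths, and the part of read assignment in that difference was not tested.

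The same pair was compared under RNAi, in libraries that the control comparison did not use. Under *par-1* RNAi, 6388 of 16907 genes were called (37.8%), and under *pos-1* RNAi 3595 of 16766 (21.4%). Of the 4845 control calls tested under *par-1* RNAi, 4605 kept their direction, 3486 were called the same way and 12 the other way. Of 4835 tested under *pos-1* RNAi, 4585 kept it, 2580 were called the same way and 2 the other way, which were *pos-1* itself and 1 locus of *pes-2.1*. Of the genes not called in the control, 2772 of 11393 and 987 of 11342 were called. In all, 2211 genes were called the same way in all 3 conditions. *sid-1* stayed at 562 to 598 in EG4348 against 57.8 to 72.8 in QX1211 under *par-1* RNAi, and at 416 to 615 against 53.5 to 63.8 under *pos-1* RNAi. Of the 33 sperm genes called in the control, 30 kept their direction under *par-1* RNAi and 11 were called the same way, and the *msp* sum was 113 to 396 in EG4348 and 244 to 587 in QX1211. The furrow collagens *dpy-2*, *dpy-3* and *dpy-7* had log2 fold changes of -3.15 to -3.41 under *par-1* RNAi and of -0.17 to -0.38 under *pos-1* RNAi. A test of the difference itself found 13 of 18581 genes for *par-1* RNAi (0.07%) and 1, *pos-1*, for *pos-1* RNAi (0.00538%).

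Set beside the other strains, QX1211 was more often apart. In the paper, QX1211 is the strain most diverged from N2 and has the most genes with missing or low DNA coverage. The part of read assignment in its values was not tested. All 3 QX1211 libraries lay outside the range of the other 12 control libraries at 1612 of the 4868 called genes, and all 3 EG4348 libraries lay outside at 726. Among all genes tested, the shares were 10.6% and 4.93%. At 148 called genes both strains were outside the rest, and at 2678 neither was.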

How the data were processed

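RNA was sequenced from whole worms with a strand-specific library kit. The authors trimmed reads with Trimmomatic 0.3.9 and quantified them with Salmon 1.4.0 against strain-specific transcriptomes, with SNPs and INDELs inserted into WBcel235. The deposited files give estimated counts and TPM per transcript. A deposited table of signal values gives DESeq2-normalized counts per gene, in which the authors corrected for library size and transcript length, and is the unit of single genes here.

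Estimated counts were summed per gene (65173 transcript names, 21 not matched to the Ensembl annotation), rounded, and tested in edgeR 4.0.16 (R 4.3.3) on the 15 control libraries, with one mean per strain, TMM factors, transcript length offsets from effective lengths and TPM, at least 10 reads per gene, and Benjamini-Hochberg adjustment (called under 0.1). Positive log2 fold changes mean higher in EG4348. Standard errors came from the F statistic. Library depth sets the precision of low counts. Bounds use 3 counts over the 3 libraries of a strain. Fits were tested on simulated data.

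Named genes were, per direction, the 10 largest called differences (no overlap, at least 50 normalized counts), the 5 smallest p, the 5 most abundant silent in the other strain, up to 4 called members per list (at least 10 normalized counts), all called RNAi and toxin-antidote genes, *pos-1*, *par-1* and called genes of the top 3 windows. Genes named outside this rule were chosen after their values were seen. Members and lists were chosen with earlier results of these data known. Alternatives were DESeq2 1.42.0, RLE factors, other filters and offsets, other library sets, limma 3.58.1 on log2 of the deposited value + 1, a replicate block and each library left out. The interaction test was added after seeing the data.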

Additional observations from a re-analysis of the deposited data

Results flagged for a closer look

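The difference between EG4348 and QX1211 changed between conditions at 6 of the named genes, by the test of the strain by treatment interaction in the fit of all 45 libraries (edgeR, adjusted p under 0.1). No cause was tested.

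*pos-1* was the only gene past the threshold for *pos-1* RNAi, where the log2 fold change of EG4348 over QX1211 changed from the control by -1.11 (SE 0.14, adjusted p 8.7e-05). It had 6335 to 6621 normalized counts in the EG4348 control and 2482, 2536 and 3248 under *pos-1* RNAi, while QX1211 had 5308 to 5567 and 4909 to 5114. The other target, *par-1*, had 952 to 1527 in EG4348 and 1142 to 1416 in QX1211 under *par-1* RNAi.

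Under *par-1* RNAi, 5 named genes were among the 13 that passed, and the strains differed less there than in the control. These 5 were named among genes called in the control, and the test subtracts that same control difference. A smaller difference under RNAi was therefore the likelier direction, and no conclusion is drawn from its being shared. Y41C4A.32 changed by 6.20 on the log2 scale (SE 0.95, adjusted p 0.0014), with 43.5 to 138 normalized counts in QX1211 under *par-1* RNAi against 649 to 1019 in the control, and 8.35 to 26.5 against 1.44 to 1.77 in EG4348. *tbb-6* changed by 2.19 (SE 0.40, adjusted p 0.014), with 80.2 to 114 in EG4348 under *par-1* RNAi against 21.0 to 27.3 in the control. Y71A12B.11 changed by 2.30 (SE 0.50, adjusted p 0.096), with 34.9 to 67.2 against 6.06 to 16.38 in EG4348. *dhs-26* changed by 7.28 (SE 1.46, adjusted p 0.048), a fitted value that starts from no read in the EG4348 control and rests on 14.2 and 15.2 normalized counts in 2 of the 3 EG4348 libraries under *par-1* RNAi. The chemoreceptor *sri-40* changed by -2.02 (SE 0.28, adjusted p 0.0014), from 144 to 158 against 26.2 to 49.1 in the control to 63.7 to 71.0 against 58.2 to 80.5.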

How the results depend on the processing

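The count of called genes stayed within 1.5 times of 4868 under DESeq2 (4185), RLE factors (4836), no length offset (5750), other filters (4342 and 4445), the 6 libraries alone (4529), all 45 libraries (4783) and limma on the deposited values (5016). Requiring a fold change above 1.5 gave 3115 calls, 918 of them higher in EG4348 in place of 2224. Leaving out 1 library gave 3630 to 4875 calls, 1753 to 2325 higher in EG4348 and 1877 to 2550 higher in QX1211. Under *par-1* RNAi the range was 5031 to 6014 and under *pos-1* RNAi 2500 to 3051. Replicate numbers did not pair the samples, since the deviations of same-numbered libraries had correlations of -0.05, -0.03 and -0.09, and a replicate block gave 4797 calls in the control.

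Of 163 named genes, 1 changed sign, *par-2*, whose log2 fold change was 0.19 without the transcript length offset. The call was lost in at least 1 setting for 18 named genes, most often without replicate 1 of QX1211 (12 genes, among them *csr-1*, *ego-1*, *irg-4* and *set-24*). *drh-1* and *wrt-3* were not called without the length offset. The number of C-type lectins called fell to 38 and of chemoreceptors to 3 under a stricter filter that tests fewer weak genes, and 10 genes of the dicing step were called without the length offset. Weakly expressed genes, such as most of those silent in one strain, are limited by depth.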

Other observations

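Among more strongly expressed genes, chromosome X leaned towards QX1211 and the autosomes towards EG4348. Among genes with at least 50 normalized counts in the higher strain, the median log2 fold change was -0.11 over 1068 X-linked genes and 0.07 over 7308 autosomal ones, and 72.9% of the 358 calls on X were higher in QX1211 but 36.0% of the 2595 autosomal calls. Over all genes tested, the autosomes did not lean that way, with medians of -0.08 to 0.0045 by chromosome and 2070 calls higher in EG4348 against 2222 in QX1211, while X had a median of -0.15 with 153 against 415. The medians were -0.14 and 0.10 under *par-1* RNAi and -0.17 and 0.06 under *pos-1* RNAi.

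Of 14 mitochondrial genes tested, 7 were higher in QX1211 and 1, MTCE.7, in EG4348 (57.1% called, beside 29.5% of all genes). COX3, a subunit of cytochrome c oxidase, had 5481 to 5609 normalized counts in EG4348 and 9763 to 12957 in QX1211 (log2 fold change -1.04, SE 0.11), and ND1, a subunit of complex I, 1649 to 1831 against 3046 to 4364 (log2 fold change -1.11, SE 0.12). The sum over the mitochondrial genes was 44446 to 48477 in EG4348 and 53699 to 64492 in QX1211 (exact permutation p = 0.1, the smallest possible).

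Long intergenic noncoding RNAs were called at 20 of 71 (28.2%, beside 29.5% of all genes), with 15 higher in EG4348 and 5 in QX1211. *linc-29* had 22.7 to 30.7 normalized counts in EG4348 and 83.5 to 111 in QX1211 (log2 fold change -1.96, SE 0.23), and *lep-5*, which times the onset of sexual maturation of the nervous system, 193 to 284 against 358 to 475 (log2 fold change -0.73, SE 0.13). T09F5.12 was at 31.8 to 38.9 against 0 to 5.32. Of the 15, 9 had no read in any QX1211 control library and a mean of at most 10.7 in EG4348. These genes were picked out after their values were seen.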
